A study of Mus musculus with 15 samples.

Results

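The transcription factors described here are the C/EBP family members Cebpa, Cebpb, Cebpd, Cebpe and Cebpg and their partners in myeloid development, Spi1, Gfi1, Irf8 and Klf4. They were chosen by gene symbol, 9 genes in all, and 8 of them had a probe set named in the annotation used, out of 17097 named genes on the array. Cebpe was not analysed here. The 8 genes were covered by 14 probe sets, of 45141 on the array.

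Expression was measured on 15 microarrays of mouse bone marrow cells, 3 in each of 5 groups. Marrow of female C57Bl/6 donors treated with fluorouracil was transduced with an MSCV retrovirus and transplanted into lethally irradiated mice, and LSK cells were sorted from the hosts without culture. LSK stands for lineage-negative, Sca-1+ and Kit+, a gate for stem cells and the first progenitors of blood. The HOXB4 groups carried a vector with HOXB4 and a yellow fluorescent protein and were profiled at 6, 12 and 20 weeks after transplantation. The GFP groups carried the same type of vector with green fluorescent protein alone and were profiled at 12 and 20 weeks. All groups thus shared the donor treatment, the retroviral transduction and the irradiated host, and the viral promoter that drives HOXB4 is not restricted to 1 cell type. The titles give 20 weeks for the last time, which is used here, while the series text gives 24 weeks. GFP cells at 6 weeks were not analysed here, and the labels give no age.

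C/EBP proteins are basic leucine zipper factors that bind DNA as dimers with each other or with related proteins. C/EBP alpha and PU.1, the product of Spi1, together set up the granulocyte and monocyte programme in progenitors, and PU.1 acts with IRF8 on the monocyte and dendritic side. GFI1 is a repressor that favours granulocytes, and KLF4 is a zinc finger factor of monocytes. C/EBP beta and C/EBP delta serve stress-induced and late myeloid gene expression, whereas C/EBP gamma lacks a transactivation domain and acts as a dimer partner. LSK cells hold stem cells and multipotent progenitors, in which several of these factors are already expressed at low or moderate levels before a lineage is chosen.

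The start-site windows of 3 members are shown because Cebpa and Cebpg, which gave different results, are neighbours on chromosome 7, and because a Gfi1 window held the one C/EBP motif found. The windows are from RefSeq on GRCm38.p6, run from 250 bases before to 50 bases after a start site, and are printed 5′ to 3′ on the gene's strand. Capitals mark a motif match.
Cebpa, chr7:35119043-35119342, plus strand: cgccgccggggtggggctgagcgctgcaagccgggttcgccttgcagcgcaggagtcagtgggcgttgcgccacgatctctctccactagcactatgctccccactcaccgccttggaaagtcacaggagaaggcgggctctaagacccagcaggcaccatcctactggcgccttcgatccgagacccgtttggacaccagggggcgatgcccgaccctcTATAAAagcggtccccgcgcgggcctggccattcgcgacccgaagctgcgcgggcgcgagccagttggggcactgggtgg
Cebpg, chr7:35056517-35056816, minus strand: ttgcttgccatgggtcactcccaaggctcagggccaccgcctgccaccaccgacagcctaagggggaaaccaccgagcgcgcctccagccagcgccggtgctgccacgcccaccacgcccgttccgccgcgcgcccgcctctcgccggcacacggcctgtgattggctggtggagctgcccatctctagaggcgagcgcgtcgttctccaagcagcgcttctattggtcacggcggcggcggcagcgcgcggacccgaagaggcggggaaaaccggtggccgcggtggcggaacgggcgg
Gfi1, window 2, chr5:107725756-107726055, minus strand: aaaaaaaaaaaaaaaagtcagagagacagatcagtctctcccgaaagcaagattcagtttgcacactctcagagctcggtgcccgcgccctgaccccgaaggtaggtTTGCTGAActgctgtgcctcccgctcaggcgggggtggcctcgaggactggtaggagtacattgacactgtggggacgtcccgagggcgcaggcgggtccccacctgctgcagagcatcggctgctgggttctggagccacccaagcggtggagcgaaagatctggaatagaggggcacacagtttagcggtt
Of the 9 genes, 6 had windows in the table, 8 windows in all. Cebpd, Cebpe and Spi1 had none. The annotation placed 1 gene between Cebpg and Cebpa, Gm35611, which is not annotated as protein-coding.

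Motifs of 3 kinds were searched on both strands. The C/EBP motif TTGCNNAA was present in 10.8% of all 32817 windows of this length and in 1 of the 8 windows, window 2 of Gfi1, as TTGCTGAA at positions -143 to -136 from the start site. The PU.1 motif GAGGAAGT (3.2% of all windows) and the composite motif of PU.1 with IRF8 (GGAA and GAAA with 2 free bases between; 2.72% of all windows) had no match in the 8 windows. A TATA box search with the letters TATAAA was added after the sequences were seen. It matched at -30 to -25 in Cebpa, at 22 to 27 after the start in Cebpb and at -31 to -26 in window 1 of Irf8 (chr8:120736108-120736407, plus strand), against 13.6% of all windows. The GC content was 67.3% in the Cebpa window, 80.7% in the Cebpb window and 71.7% in the Cebpg window. A match is only a run of letters here, and a window without one says nothing of binding elsewhere.

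The values are log2 RMA signals, on which a difference of 1 is a doubling of signal. The median signal of the 15 arrays lay between 5.25 and 5.40, and arrays of 1 group correlated between 0.967 and 0.994. One array stood apart. Replicate 1 of HOXB4 at 6 weeks had a Gapdh control signal 3.76 higher at the 3′ than at the 5′ end, against 0.81 to 2.02 on the other 14 arrays, so the members' comparisons with the 6-week group were repeated without it. Replicates 2 and 3 at 6 weeks had 1.68 and 1.71, still above the 12-week arrays of both vectors (0.81 to 1.25). The 2.02 was replicate 3 of HOXB4 at 20 weeks. Leaving out 1 array thus does not level this ratio between the groups. Of the LSK markers, Kit averaged 8.21 ± 0.12, 8.07 ± 0.11 and 8.11 ± 0.25 at 6, 12 and 20 weeks with HOXB4, and 8.70 ± 0.09 and 8.40 ± 0.07 at 12 and 20 weeks with GFP (SD, n = 3). Of the 4 measured LSK markers 2, Kit and Cd34, were called lower with HOXB4 at 12 weeks and 0 higher, while at 20 weeks 2, Flt3 and Slamf1, were called higher and 0 lower. Slamf1, a marker of stem cells, averaged 7.28 ± 0.24 in HOXB4 against 5.64 ± 0.19 in GFP cells at 12 weeks and 6.77 ± 1.58 against 4.97 ± 0.18 at 20 weeks. Flt3, a receptor of multipotent progenitors, averaged 9.45 ± 0.04 in HOXB4 against 8.03 ± 0.91 in GFP cells at 20 weeks. Ly6a, which encodes Sca-1, had no probe set named here, so the label could be checked by Kit, Cd34, Flt3 and Slamf1 only. The labels do not state separate mice for replicate arrays, so the p-values cover array-to-array spread that may be only technical.

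HOXB4 cells had lower levels of most of these factors than GFP cells, with more members passing at 20 than at 12 weeks. At 20 weeks 7 of the 8 measured members were lower in HOXB4 cells at an adjusted p under 0.05 in limma and 0 were higher, in a comparison where 8.95% of all genes were called, 5.18% as lower and 3.77% as higher. At 12 weeks 4 of 8 were lower and 0 higher, where 4.02% of all genes were called, 2.2% as lower and 1.82% as higher. The median log2 difference of the 8 members was -1.58 at 20 weeks and -0.79 at 12 weeks, against 0.02 and -0.02 for all genes. The test of whether the differences at 20 and 12 weeks differ passed for 1 of the 8, Cebpd, where 0.509% of all genes were called. The other members gave adjusted p between 0.135 (Cebpb) and 0.85 (Spi1) in limma. More members passing at 20 weeks thus does not by itself show a larger difference for each of them. Cebpg was the member that passed at neither time. The arrays of the 2 vectors did not overlap for 7 of 8 members at 20 weeks and 6 of 8 at 12 weeks, while 25.4% and 34.8% of all genes had such non-overlapping groups. These are bulk samples, in which fewer cells of a type and less RNA per cell cannot be told apart.

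**Figure D1:**
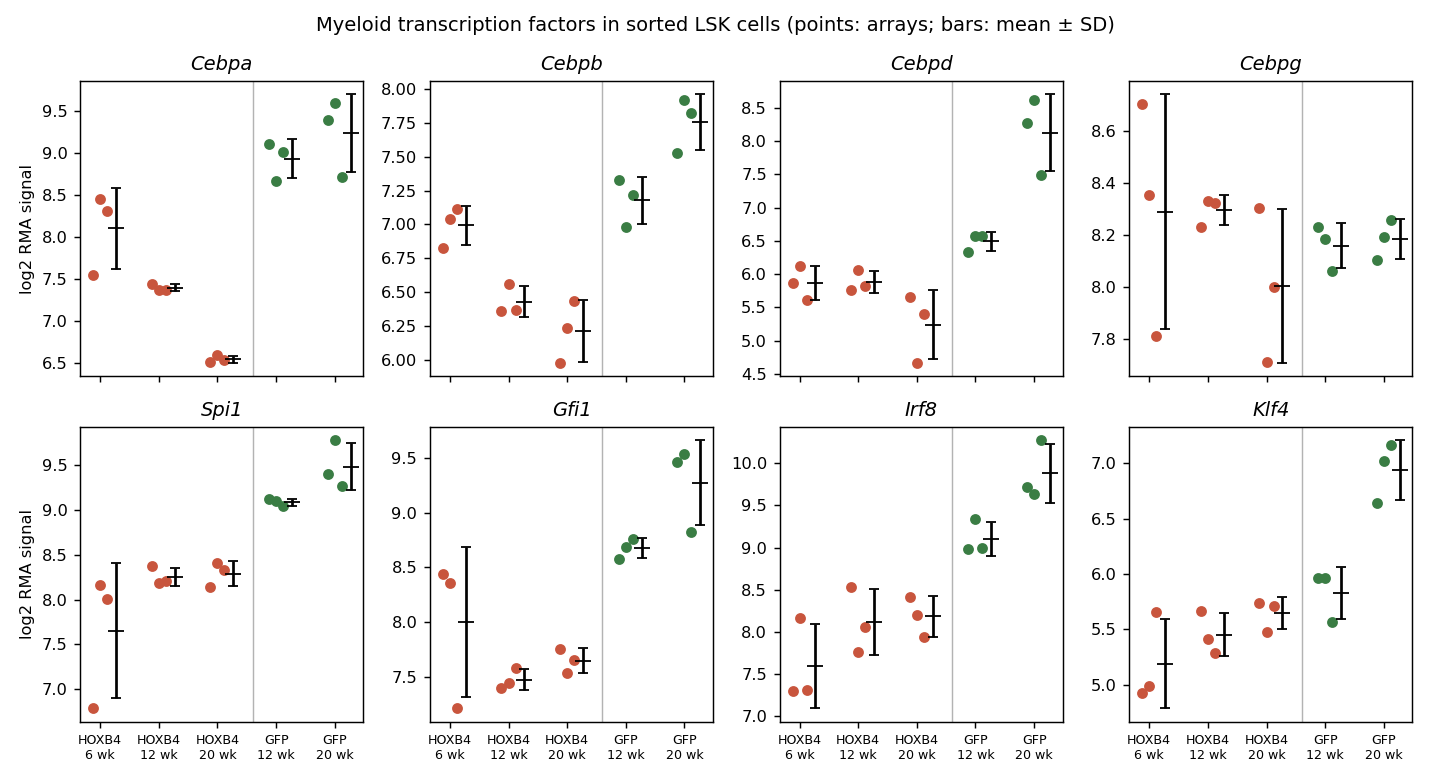
Log2 RMA signal of the brightest probe set of each of the 8 measured factors, 1 point per array, with the mean and SD of 3 arrays beside the points (y axis, own scale per gene; x axis, group, with the HOXB4 groups left of the line and the GFP groups right of it). Cebpa runs between 6.51 and 8.45 in HOXB4 cells and between 8.66 and 9.59 in GFP cells, without overlap, while the Cebpg groups overlap.

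**Figure D2:**
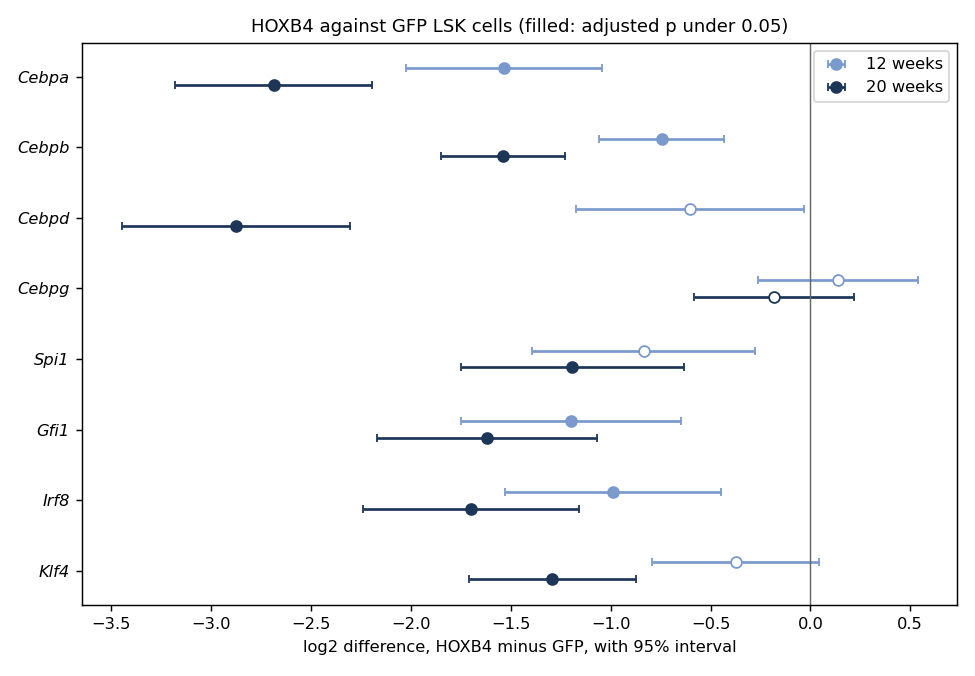
Log2 difference of HOXB4 minus GFP cells for each factor at 12 weeks (light) and 20 weeks (dark), with the 95% interval of the limma model; filled points passed an adjusted p of 0.05. At 20 weeks 7 of 8 points are filled and lie between -2.88 and -1.19, and the Cebpg points lie beside 0.

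Cebpa encodes the factor that granulocyte-monocyte progenitors require to form. In HOXB4 cells its signal was 7.55, 8.45 and 8.30 on the 3 arrays at 6 weeks, 7.44, 7.37 and 7.37 at 12 weeks, and 6.51, 6.59 and 6.53 at 20 weeks. In GFP cells it was 9.11, 8.66 and 9.01 at 12 weeks and 9.39, 9.59 and 8.71 at 20 weeks. Every HOXB4 array was below every GFP array, and the 3 HOXB4 times stood in order of time without overlap, latest lowest. Replicate 1 at 6 weeks was the array nearest to the 12-week group. The difference between vectors was -1.53 ± 0.23 at 12 weeks (SE; 2.89-fold lower; adjusted p = 0.00319 in limma) and -2.69 ± 0.23 at 20 weeks (6.44-fold lower; adjusted p = 8.93e-06). The call at 12 weeks held when any 1 of the 6 arrays was left out. The 2 differences were not shown to differ from each other, at -1.15 ± 0.33 (adjusted p = 0.169), although without replicate 3 of GFP at 20 weeks this passed, at -1.41 (adjusted p = 0.0262). Cebpa thus had the lowest level in HOXB4 cells at 20 weeks and the highest in GFP cells at 20 weeks, and the neighbouring GFP groups at 20 and 12 weeks differed by 0.30 ± 0.23, with overlapping arrays (adjusted p = 0.673).

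Within HOXB4 cells Cebpa was 2.94-fold lower at 20 than at 6 weeks (-1.56 ± 0.23, adjusted p = 0.00387). Neither step within that span passed in limma, with -0.71 ± 0.23 for 12 against 6 weeks (adjusted p = 0.128) and -0.85 ± 0.23 for 20 against 12 weeks (adjusted p = 0.144). Fitted on the compared groups alone, the 20 against 6 week difference did not pass (adjusted p = 0.128) and the 20 against 12 week difference did (adjusted p = 0.0289). The share of all genes called at 20 against 6 weeks also depended on the setting, from 0.00585% to 6.84%. Without replicate 1 of HOXB4 at 6 weeks, the array with the high Gapdh ratio, the 12 against 6 week difference was -0.98 (adjusted p = 0.0481). The HOXB4 arrays at 20 weeks all lay below those at 12 weeks.

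Cebpb encodes the factor of emergency granulopoiesis and macrophage genes. On its brightest probe set HOXB4 cells had 6.83, 7.04 and 7.11 at 6 weeks, 6.36, 6.56 and 6.37 at 12 weeks, and 5.98, 6.24 and 6.43 at 20 weeks. GFP cells had 7.33, 6.98 and 7.22 at 12 weeks and 7.53, 7.92 and 7.82 at 20 weeks. The GFP arrays were above the HOXB4 arrays of the same time, and the 6-week HOXB4 arrays overlapped the 12-week GFP arrays. HOXB4 cells were 1.68-fold lower at 12 weeks (-0.75 ± 0.15, adjusted p = 0.012) and 2.91-fold lower at 20 weeks (-1.54 ± 0.15, adjusted p = 1.68e-05). The 12-week call was lost in 4 of the 6 fits that left out 1 array, with -0.67 (adjusted p = 0.0681) without replicate 1 and -0.72 (adjusted p = 0.0551) without replicate 3 of GFP, and -0.71 (adjusted p = 0.0568) without replicate 1 and -0.71 (adjusted p = 0.0511) without replicate 3 of HOXB4. The 6 fits called 1.25% to 2.12% of all genes, against 4.02% with all arrays. Within HOXB4 cells Cebpb was lower at 20 than at 6 weeks (-0.78 ± 0.15, adjusted p = 0.0104), a call that was lost in the fit on those groups alone (adjusted p = 0.168). In GFP cells it was 0.58 ± 0.15 higher at 20 than at 12 weeks, just short of the threshold (adjusted p = 0.0538).

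The other Cebpb probe sets did not pass. Probe set 1427843_PM_at differed between HOXB4 and GFP cells by -0.22 ± 0.11 at 12 weeks (adjusted p = 0.319 over all named probe sets) and -0.19 ± 0.11 at 20 weeks (adjusted p = 0.348). Probe set 1427844_PM_a_at differed by -0.41 ± 0.18 at 12 weeks (adjusted p = 0.256) and -0.56 ± 0.18 at 20 weeks (adjusted p = 0.077). All 3 probe sets were thus lower on average in HOXB4 cells, by unequal amounts. For GFP at 20 against 12 weeks 1427843_PM_at gave -0.01 ± 0.11 (adjusted p = 0.986) and 1427844_PM_a_at 0.09 ± 0.18 (adjusted p = 0.924), with overlapping arrays. The changes of Cebpb over time, in HOXB4 and in GFP cells, rest on the brightest probe set alone. With the mean of the 3 probe sets, the difference between vectors was -0.46 at 12 weeks and -0.76 at 20 weeks, both still called, and that for HOXB4 at 20 against 6 weeks was -0.21 (adjusted p = 0.267).

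Cebpd encodes an acute-phase C/EBP factor that is induced in late granulocytes and macrophages. HOXB4 cells had 5.87, 6.12 and 5.62 at 6 weeks, 5.76, 6.07 and 5.83 at 12 weeks, and 5.65, 4.67 and 5.41 at 20 weeks. GFP cells had 6.33, 6.57 and 6.57 at 12 weeks and 8.26, 8.61 and 7.48 at 20 weeks. The GFP arrays at 20 weeks stood above all other arrays, and the HOXB4 arrays at 6 and 12 weeks overlapped. At 20 weeks HOXB4 cells were 7.34-fold lower (-2.88 ± 0.27, adjusted p = 1.5e-05), the member with the lowest log2 difference. At 12 weeks the difference was -0.60 ± 0.27, with arrays that did not overlap, and did not pass (adjusted p = 0.229). It passed when only the groups compared were fitted (adjusted p = 0.0081), a fit that called 15.2% of all genes, against 4.02% in the fit of all groups.

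Cebpd was the one member whose HOXB4 difference itself differed between the times on the brightest probe set, by -2.27 ± 0.38 at 20 against 12 weeks (adjusted p = 0.0122), where 0.509% of all genes were called, 0.386% with a negative difference. The larger change over time was that in GFP cells, where Cebpd rose 3.09-fold at 20 against 12 weeks (1.63 ± 0.27, adjusted p = 0.00417), while HOXB4 cells gave -0.64 ± 0.27 for the same times (adjusted p = 0.376). The call on the difference of effects was lost without replicate 1 of GFP at 20 weeks (-2.20, adjusted p = 0.050003) and without replicate 2 of HOXB4 at 12 weeks (-2.18, adjusted p = 0.0532).

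Cebpg encodes the family member without a transactivation domain. On its brightest probe set HOXB4 cells had 8.71, 8.35 and 7.81 at 6 weeks, and 8.23, 8.33 and 8.32 at 12 weeks. At 20 weeks replicates 1 and 2 had 8.30 and 7.71, with replicate 3 midway between them. GFP cells had 8.23, 8.18 and 8.06 at 12 weeks and 8.10, 8.19 and 8.26 at 20 weeks. The 5 groups overlapped. The difference of HOXB4 from GFP cells was 0.14 ± 0.19 at 12 weeks (95% interval -0.26 to 0.54, adjusted p = 0.751) and -0.18 ± 0.19 at 20 weeks (-0.58 to 0.22, adjusted p = 0.636). The intervals exclude a change as large as that of Cebpa at either time. The other 2 probe sets gave -0.07 and 0.01 at 12 weeks and -0.02 and 0.02 at 20 weeks, none called. They did not track the brightest one across the 15 arrays (r = 0.244 and -0.246).

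**Figure D3:**
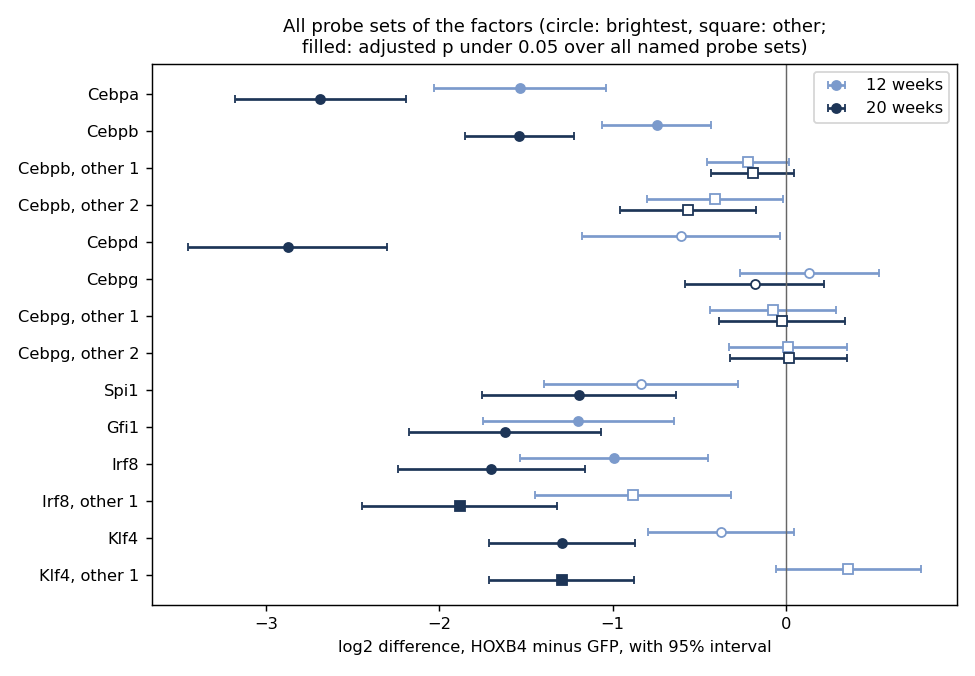
Log2 difference of HOXB4 minus GFP cells for all 14 probe sets of the factors at 12 weeks (light) and 20 weeks (dark), with 95% intervals; circles are the brightest probe set of a gene, squares the others, and filled symbols passed an adjusted p of 0.05 over all named probe sets. The other Cebpb probe sets lie nearer 0 than the brightest, and the 2 Klf4 probe sets part at 12 weeks (-0.37 and 0.36) and meet at 20 weeks (-1.29 each).

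Spi1 encodes PU.1, an ETS factor whose dose sets the balance of myeloid, B-cell and stem cell fates. HOXB4 cells had 6.79, 8.17 and 8.01 at 6 weeks, 8.37, 8.18 and 8.20 at 12 weeks, and 8.14, 8.41 and 8.33 at 20 weeks. GFP cells had 9.12, 9.10 and 9.04 at 12 weeks and 9.40, 9.78 and 9.27 at 20 weeks. Every HOXB4 array lay below every GFP array, and the low value at 6 weeks is the array with the high Gapdh ratio. HOXB4 cells were 2.29-fold lower at 20 weeks (-1.19 ± 0.26, adjusted p = 0.00965). At 12 weeks the difference was -0.83 ± 0.26 (adjusted p = 0.0897), short of the threshold in the fit of all groups and past it when only the groups compared were fitted (adjusted p = 0.00053). The latter fit called 15.2% of all genes, against 4.02% in the fit of all groups. The fit of all groups also takes in the 6-week group, where Spi1 had an SD of 0.76. The 12-week HOXB4 and GFP groups had SDs of 0.10 and 0.04. The comparison of vectors was not repeated without the array with the high Gapdh ratio, so the part of that array was not tested. Without replicate 2 of GFP at 20 weeks the 20-week call was lost (-1.04, adjusted p = 0.0585). Unlike for Cebpa, there was no called change in HOXB4 cells, with 0.04 ± 0.26 for 20 against 12 weeks (adjusted p = 0.974) and 0.64 ± 0.26 for 20 against 6 weeks (adjusted p = 0.183), or 0.20 without the array with the high Gapdh ratio. Whether the 2 genes differ in this was not tested.

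Gfi1 encodes a SNAG-domain repressor that antagonises PU.1 and is needed for neutrophils. HOXB4 cells had 8.44, 8.36 and 7.22 at 6 weeks, 7.40, 7.45 and 7.59 at 12 weeks, and 7.76, 7.54 and 7.65 at 20 weeks. GFP cells had 8.58, 8.69 and 8.76 at 12 weeks and 9.46, 9.53 and 8.83 at 20 weeks. The HOXB4 arrays were all below the GFP arrays, and at 6 weeks replicates 1 and 2 came close to GFP cells while replicate 3 did not. HOXB4 cells were 2.29-fold lower at 12 weeks (-1.20 ± 0.26, adjusted p = 0.0194) and 3.08-fold lower at 20 weeks (-1.62 ± 0.26, adjusted p = 0.00101). The 12-week call was lost whichever of the 6 arrays was left out, with adjusted p between 0.0517 (without replicate 3 of HOXB4, -1.25) and 0.0773 (without replicate 3 of GFP, -1.15). These fits called 1.25% to 2.12% of all genes, against 4.02% with all arrays, so a lost call is not particular to Gfi1. For HOXB4 at 12 against 6 weeks the difference was -0.53 ± 0.26 (adjusted p = 0.324), and without replicate 3 at 6 weeks it was -0.92 (adjusted p = 0.0288). For 20 against 6 weeks it was -0.35 ± 0.26 (adjusted p = 0.485), and -0.75 without that replicate (adjusted p = 0.0318).

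Irf8 encodes an interferon regulatory factor that directs progenitors to monocytes and dendritic cells at the expense of neutrophils. HOXB4 cells had 7.29, 8.16 and 7.31 at 6 weeks, 8.53, 7.76 and 8.05 at 12 weeks, and 8.42, 8.20 and 7.93 at 20 weeks. GFP cells had 8.98, 9.34 and 8.99 at 12 weeks and 9.72, 9.64 and 10.28 at 20 weeks. Every HOXB4 array was below every GFP array, and the 3 HOXB4 groups overlapped each other. HOXB4 cells were 3.25-fold lower at 20 weeks (-1.70 ± 0.25, adjusted p = 0.000622) and 1.99-fold lower at 12 weeks (-0.99 ± 0.25, adjusted p = 0.0417). The 12-week call was lost with the replicate number as a block (adjusted p = 0.0662), after quantile normalisation (-0.90, adjusted p = 0.0692), and in 5 of the 6 fits that left out 1 array. Those were -1.05 without replicate 1, -0.87 without replicate 2 and -1.05 without replicate 3 of GFP, and -0.81 without replicate 2 and -0.96 without replicate 3 of HOXB4, with adjusted p between 0.0936 and 0.174. With 1 array left out, 1.25% to 2.12% of all genes were called at 12 weeks, against 4.02% with all arrays. The other probe set tracked the first across arrays (r = 0.974) and gave -1.88 ± 0.26 at 20 weeks (adjusted p = 0.000452 over all named probe sets) and -0.88 ± 0.26 at 12 weeks (adjusted p = 0.0842). The change in HOXB4 cells at 20 against 6 weeks was 0.60 ± 0.25 (adjusted p = 0.197), and 0.88 without replicate 2 at 6 weeks (adjusted p = 0.0403).

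Klf4 encodes a factor that PU.1 is known to switch on in monocytes. HOXB4 cells had 4.93, 4.99 and 5.66 at 6 weeks, 5.66, 5.41 and 5.29 at 12 weeks, and 5.74, 5.48 and 5.72 at 20 weeks. GFP cells had 5.96, 5.96 and 5.56 at 12 weeks and 6.64, 7.02 and 7.16 at 20 weeks. The GFP arrays at 20 weeks stood above all others, and the groups at 12 weeks overlapped. HOXB4 cells were 2.45-fold lower at 20 weeks (-1.29 ± 0.20, adjusted p = 0.00073), and at 12 weeks the difference of -0.37 ± 0.20 did not pass (adjusted p = 0.314). In GFP cells Klf4 rose 2.16-fold at 20 against 12 weeks (1.11 ± 0.20, adjusted p = 0.0067), and 1.24 ± 0.20 on its other probe set (adjusted p = 0.00385 over all named probe sets). That other probe set gave 0.36 ± 0.20 for HOXB4 against GFP at 12 weeks (adjusted p = 0.353) and -1.29 ± 0.20 at 20 weeks (adjusted p = 0.000823). Its difference between the 2 effects passed (-1.65 ± 0.28, adjusted p = 0.0153), and the brightest probe set gave -0.92 ± 0.28 for the same quantity (adjusted p = 0.2). With the mean of both, it was -1.29 (adjusted p = 0.0192). For HOXB4 at 20 against 6 weeks Klf4 gave 0.45 ± 0.20 (adjusted p = 0.206), and 0.69 without replicate 3 at 6 weeks (adjusted p = 0.0462).

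Between 12 and 20 weeks 2 members rose in GFP cells, and 0 passed the test in HOXB4 cells. In GFP cells these were Cebpd and Klf4, of 8 measured, and 0 fell, where 2.37% of all genes were called, 1.23% as higher and 1.14% as lower. The GFP arrays of the 2 times did not overlap for 6 of 8 members, against 22.2% of all genes, and in all 6 the 20-week arrays were higher. Besides Cebpd and Klf4 these were Cebpb, Spi1 (0.40 ± 0.26), Gfi1 (0.60 ± 0.26) and Irf8 (0.78 ± 0.25), with adjusted p between 0.0538 and 0.601. For Cebpb this holds on the brightest probe set only. The members' median difference was 0.59, against -0.04 for all genes. The comparison of HOXB4 with GFP cells at 20 weeks shares these GFP arrays, so the 2 sets of values are not independent.

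In HOXB4 cells 0 of 8 members passed at 12 against 6 weeks in limma (3 at an unadjusted p under 0.05), where 1.57% of all genes were called, 1.25% as higher and 0.316% as lower. Likewise 0 of 8 passed at 20 against 12 weeks (2 at an unadjusted p under 0.05), where 0.252% were called, 0.0643% as higher and 0.187% as lower. Over the whole span, 20 against 6 weeks, Cebpa and Cebpb were lower and 0 were higher, where 4.66% of all genes were called, 1.36% as lower and 3.3% as higher. The arrays of both times did not overlap for 3 members at 12 against 6 weeks (21.1% of all genes), for 2 at 20 against 12 weeks (19.2%) and for 2 at 20 against 6 weeks (18.2%). The members' medians were 0.01, -0.09 and -0.32 for these comparisons, against 0.01, -0.01 and 0.00 for all genes. The 6 other measured members did not pass, and Spi1, Irf8 and Klf4 had positive differences over that span. The number called was 0 in the fit on the 2 groups alone and 1 (Cebpa) with probe sets averaged per gene. Over the alternative settings the share of all genes called at 20 against 6 weeks itself ran from 0.00585% to 6.84%. A lost call in these settings is thus not particular to the members. Without replicate 3 of the 6-week group it was 4, with Gfi1 lower and Klf4 higher.

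Without replicate 1 of the 6-week group, the array with the high Gapdh ratio, 2 members were again called at 20 against 6 weeks, Cebpa (-1.83, adjusted p = 0.00256) and Cebpb (-0.86, adjusted p = 0.012). The other members then gave -0.62 for Cebpd, -0.077 for Cebpg, 0.20 for Spi1, -0.14 for Gfi1, 0.45 for Irf8 and 0.32 for Klf4, with adjusted p between 0.275 and 0.858. At 12 against 6 weeks 1 member was called without that array, Cebpa. Cebpb then gave -0.64 (adjusted p = 0.0733), and the other members lay between -0.31 (Gfi1) and 0.38 (Irf8). Spi1 gave 0.16 in that comparison, against 0.60 with all arrays. No member changed sign in either comparison without this array.

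**Figure D4:**
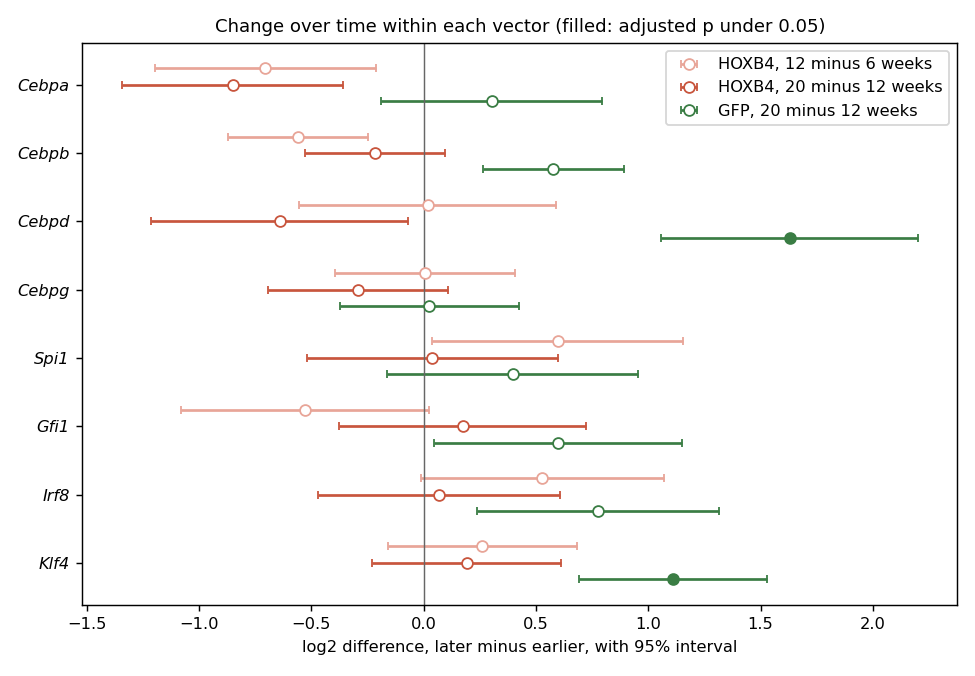
Log2 difference of the later minus the earlier time for each factor, in HOXB4 cells at 12 minus 6 and 20 minus 12 weeks (light and dark red) and in GFP cells at 20 minus 12 weeks (green), with 95% intervals; filled points passed an adjusted p of 0.05. The filled points are Cebpd (1.63) and Klf4 (1.11) in GFP cells, and the Cebpa points in HOXB4 cells lie at -0.71 and -0.85.

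Markers of neutrophils and of monocytes and macrophages were mostly lower in HOXB4 cells at 20 weeks, as these factors were. Of all genes, 5.18% were called lower and 3.77% higher at 20 weeks, and 2.2% lower and 1.82% higher at 12 weeks. At 20 weeks 7 of 9 measured neutrophil markers were lower in HOXB4 cells and 0 higher, and the mean signal of the 9 lay between 6.17 and 7.23 on the HOXB4 and between 8.65 and 8.69 on the GFP arrays. Of 8 measured monocyte and macrophage markers 5 were lower and 0 higher at 20 weeks, with mean signals of 5.40 to 5.80 on HOXB4 and 7.14 to 7.38 on GFP arrays. In GFP cells 5 of the 9 neutrophil and 4 of the 8 monocyte markers rose at 20 against 12 weeks, as Cebpd and Klf4 did. Of all genes, 1.23% were called higher in that comparison. At 12 weeks the neutrophil markers were in the opposite order to the factors, with mean signals of 7.42 to 7.87 on HOXB4 and 6.27 to 6.88 on GFP arrays, 1 of 9 called higher (Camp) and 0 lower. The monocyte markers then had 5.49 to 5.91 on HOXB4 and 6.25 to 6.40 on GFP arrays, 1 of 8 called lower. B-cell markers were at 8.40 to 8.89 on HOXB4 and 6.03 to 6.25 on GFP arrays at 12 weeks, where 4 of 5 were called higher, and at 8.75 to 9.48 and 6.74 to 8.76 at 20 weeks, where 0 of 5 were called in limma (4 at an unadjusted p under 0.05). Eosinophil markers were lower in 2 of 6 at 12 weeks and 3 of 6 at 20 weeks, with mean signals at 20 weeks of 4.72 to 6.26 on HOXB4 and 6.45 to 7.36 on GFP arrays. Other myeloid lists did not follow the factors at 20 weeks. Of 6 measured dendritic cell markers 1 was higher and 0 lower (median -0.005). The one called was Flt3, which also stands in the LSK list. Of 5 mast cell and basophil markers 2 were higher and 1 lower (median 1.31). The part of these cell types in the factors' differences was not tested.

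Receptor and granule genes known as targets of C/EBP factors or PU.1 were mostly lower in HOXB4 cells at 20 weeks and mixed at 12 weeks. Of 15 measured, 13 were lower in HOXB4 cells at 20 weeks and 0 higher (median -2.12), where 5.18% of all genes were called lower. At 12 weeks 5 were lower and 1, Camp, was higher (median -0.40), where 2.2% of all genes were called lower and 1.82% higher. Ngp (9.96 in HOXB4 against 7.45 in GFP cells), Lcn2 (8.19 against 6.84) and Ltf (7.25 against 6.09) also averaged higher at 12 weeks, uncalled. Elane (9.10 against 11.29), Prtn3 (8.79 against 10.71) and Ctsg (9.47 against 11.26) averaged lower. The receptors Csf3r and Il6ra passed at both times. Csf3r, the receptor for granulocyte colony-stimulating factor, averaged 7.16 ± 0.01 in HOXB4 against 8.69 ± 0.16 in GFP cells at 12 weeks (SD, n = 3; adjusted p = 0.00579 in limma). At 20 weeks it averaged 7.34 ± 0.32 in HOXB4 against 8.98 ± 0.46 in GFP cells (adjusted p = 0.00082). Il6ra, the interleukin-6 receptor chain, gave a log2 difference of -1.30 ± 0.20 (adjusted p = 0.00319) at 12 weeks and -1.62 ± 0.20 (adjusted p = 0.000129) at 20 weeks. Lyz2, the lysozyme of neutrophils and macrophages, averaged 8.48 ± 0.21 in HOXB4 against 10.54 ± 0.28 in GFP cells at 20 weeks (-2.07 ± 0.16, adjusted p = 4.8e-06). At 12 weeks it averaged 8.74 ± 0.07 in HOXB4 against 8.38 ± 0.23 in GFP cells (0.35 ± 0.16, adjusted p = 0.229). In GFP cells 7 of the 15 targets rose at 20 against 12 weeks and 0 fell, where 1.23% of all genes were called higher. Among the 7 were Lyz2 (2.16 ± 0.16, adjusted p = 5.28e-06), the lactoferrin gene Ltf (2.81 ± 0.37, adjusted p = 0.000747) and Itgam (1.87 ± 0.31, adjusted p = 0.00416). Ltf, Camp and Ngp also stand in the neutrophil marker list, and Csf1r and Cd14 in the monocyte list.

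Factors of other lineages, listed as opposing or competing with PU.1 or C/EBP alpha, were in part higher in HOXB4 cells at 20 weeks. Whether they opposed the members in these cells was not tested. Of 13 measured, 7 were higher in HOXB4 cells at 20 weeks and 0 lower (median 1.21), where 3.77% of all genes were called higher. At 12 weeks 2 were higher, the B-cell factors Ebf1 (3.70 ± 0.72, adjusted p = 0.0115) and Pax5 (4.01 ± 0.79, adjusted p = 0.012), and 0 lower (median 0.16), where 1.82% of all genes were called higher. Pax5 also stands in the B-cell marker list. The 7 at 20 weeks were Bcl11a, Gfi1b, Satb1, Tal1, Zfpm1, Gata2 and Tcf3. The 6 that did not pass included Gata1 (6.26 ± 0.69 in HOXB4 against 5.69 ± 0.25 in GFP cells, SD) and Klf1 (5.86 ± 0.36 against 5.76 ± 0.72). Nfe2 also did not pass and averaged lower, at 8.79 ± 0.40 against 9.36 ± 0.38. Gfi1b, the relative of Gfi1 that serves erythroid cells and megakaryocytes, averaged 8.64 ± 0.27 in HOXB4 against 7.11 ± 0.62 in GFP cells at 20 weeks (1.53 ± 0.23, adjusted p = 0.000762), and 8.91 ± 0.13 against 8.44 ± 0.18 at 12 weeks (adjusted p = 0.278). Tal1, a factor of stem cells and the erythroid line, gave 1.42 ± 0.26 at 20 weeks (adjusted p = 0.00313). In GFP cells 4 of the 13 fell at 20 against 12 weeks and 0 rose, where 1.14% of all genes were called lower. These 4 were Tal1 (-1.52 ± 0.26), Gfi1b (-1.32 ± 0.23), Bcl11a (-0.70 ± 0.14) and Zfpm1 (-1.05 ± 0.21). Megakaryocyte markers, of which Gfi1b, Tal1 and Zfpm1 are known regulators, were also higher in HOXB4 cells at 20 weeks, 4 of 6, and 1 of 6 at 12 weeks. In GFP cells 4 of the 6 fell at 20 against 12 weeks, while in HOXB4 cells 0 of 6 passed for the same times. Of 4 measured erythroblast markers 0 passed between vectors at 20 weeks, with a median of -0.52.

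Of 12 dimer partners, inhibitors and degraders of C/EBP proteins 2 passed at each time, where 4.02% of all genes were called at 12 weeks and 8.95% at 20 weeks. At 12 weeks 2 of 12 were higher in HOXB4 cells and 0 lower (median 0.10), the AP-1 genes Jun (2.43 ± 0.49, adjusted p = 0.0145) and Fos (2.43 ± 0.58, adjusted p = 0.0299), whose products can pair with C/EBP proteins. At 20 weeks Jun was higher (1.78 ± 0.49, adjusted p = 0.0357) and Id1, an inhibitor of helix-loop-helix factors, lower (-0.92 ± 0.17, adjusted p = 0.00306). Jun averaged 9.51 ± 0.42 with HOXB4 against 7.73 ± 0.46 with GFP at 20 weeks. Trib1, which with COP1 directs C/EBP alpha to degradation, differed between vectors by 0.07 ± 0.10 at 12 weeks and -0.08 ± 0.10 at 20 weeks (adjusted p = 0.758 and 0.709). Of 17 other factors listed for a part in granulocyte and monocyte development 3 were higher in HOXB4 cells at 20 weeks and 0 lower, Runx1 (0.58 ± 0.10, adjusted p = 0.00197), Tcf4 (9.29 ± 0.13 in HOXB4 against 8.29 ± 0.45 in GFP cells, SD; adjusted p = 0.0139) and Ikzf1 (0.46 ± 0.13, adjusted p = 0.0403). The other 14 did not pass, and the median of the list was 0.06, against 0.02 for all genes. The list as a set was thus not higher, and the lineage in which these 3 act here was not tested. At 12 weeks 0 of the 17 passed in limma (5 at an unadjusted p under 0.05; median 0.19).

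**Figure D5:**
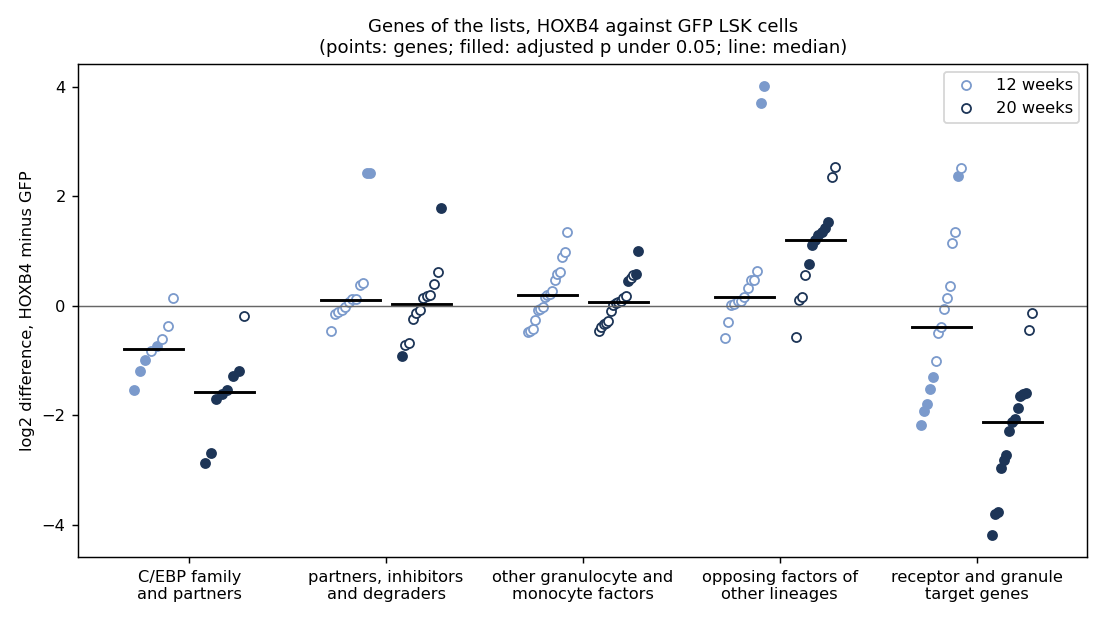
Log2 difference of HOXB4 minus GFP cells for every measured gene of 5 lists at 12 weeks (light) and 20 weeks (dark), 1 point per gene, filled where the adjusted p was under 0.05, with a line at the median. The C/EBP family and partners and their receptor and granule targets lie mostly below 0 at 20 weeks (medians -1.58 and -2.12), and factors of other lineages mostly above (median 1.21).

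Across the 15 arrays the members other than Cebpg all correlated with each other, from r = 0.552 (Cebpa and Klf4) upwards. The values are given as a description, since the arrays share group and vector. Cebpa and Cebpb had r = 0.920 over all arrays and 0.353 for deviations within groups. Spi1 and Irf8 had r = 0.885 and 0.272, Cebpd and Gfi1 0.876 and 0.636, and Irf8 and Klf4 0.853 and 0.116. These are the 4 pairs with the highest r, with Cebpb and Cebpd next at 0.842. Of the 4, the likeness of Cebpd and Gfi1 was the one that stayed above 0.5 within groups. Cebpa and Spi1 had r = 0.666 over all arrays and 0.815 within groups. Both genes were lowest of their group on replicate 1 of HOXB4 at 6 weeks, the array with the high Gapdh ratio. Cebpa was 7.55 there against 8.45 and 8.30, and Spi1 6.79 against 8.17 and 8.01. These r values were not recomputed without that array, so their order may rest on it. Cebpg had r between -0.354 (Spi1) and 0.220 (Gfi1) with the other members.

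Among 4624 genes with an SD of at least 0.3 over the 15 arrays, the genes most like Cebpa were Ctsg (r = 0.966), a granule protease of promyelocytes, Ms4a3 (0.959), a marker of granulocyte-monocyte progenitors, and Agpat5 (0.954). The profile nearest to Irf8 was that of Mpeg1 (0.979), a perforin-like gene of macrophages and dendritic cells, followed by Ly86 (0.950) and Ctsh (0.930). For Cebpd they were Dmkn, Fstl3 and Gsr (0.979, 0.978 and 0.978), the last of which encodes glutathione reductase. For Spi1 they were Ostf1, Selenos and Mapkapk2 (0.961, 0.947 and 0.946), and for Gfi1 Idh1, Scarb1 and Lta4h (0.975, 0.965 and 0.964). Those of Cebpb were Rpia, Pfkp and Mrgpra2b (0.968, 0.932 and 0.930), and those of Klf4 Ahnak, Sqor and Edem1 (0.927, 0.923 and 0.918). The nearest to Cebpg were Idi1, Hnrnph2 and Smndc1 (0.868, 0.825 and 0.820), the lowest of these values.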

How the data were processed

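Expression was measured on 15 arrays in 5 groups of 3, grouped by sample title. The deposited log2 expression values of 45141 probe sets were made by the authors with RMA (Partek 6.5, per the submitters' processing notes), which subtracts background, quantile-normalises and summarises probes into probe sets. No detection calls were used, so a low value may be background, and the number of arrays limits the precision. RNA was amplified with NuGEN reagents, per the labels' protocols.

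Names came from the platform annotation, updated with the GRCm38.p6 gene table: 28898 probe sets had 1 symbol, 551 several, and 15692 were not listed. The probe set with the highest mean stood for each of 17097 genes. A single limma 3.58.1 fit in R 4.3.3 (lmFit and eBayes) held all arrays, with a mean per group (residual degrees of freedom 10, prior 4.55). P-values are two-sided and adjusted by Benjamini-Hochberg over all genes, with calls at an adjusted p under 0.05. A two-sided exact permutation test of 3 against 3 arrays cannot go below 0.1, so adjusted p-values rest on the model. Other probe sets were adjusted over all named probe sets.

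The 7 comparisons were HOXB4 against GFP at 12 and 20 weeks, the difference of both effects, 3 between HOXB4 times and GFP at 20 against 12 weeks. Members and lists were chosen with earlier results of these data known. Every member was reported. Of each list up to 4 genes with the smallest p per comparison could be named, and 3 genes per member by Pearson r. List genes named beyond those 4 were named after their values were seen. The fit was tested on simulated data. Alternatives were a fit on the groups compared, a filter on dim genes, quantile normalisation, median centring, the mean of probe sets, a trend with robust moderation, a replicate block and leaving out each array.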

Additional observations from a re-analysis of the deposited data

Results flagged for a closer look

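The difference between HOXB4 and GFP cells was not the same at both times for Cebpd, the acute-phase C/EBP factor. The effect at 20 weeks was -2.88 and that at 12 weeks -0.60, and the test of their difference gave -2.27 ± 0.38 on the log2 scale (adjusted p = 0.0122 in limma over all genes). The call was kept in 10 of the 12 fits that left out 1 array and lost in 2, without replicate 1 of GFP at 20 weeks (adjusted p = 0.050003) and without replicate 2 of HOXB4 at 12 weeks (adjusted p = 0.0532). All 3 GFP arrays at 20 weeks (8.26, 8.61 and 7.48) lay above the 3 GFP arrays at 12 weeks (6.33, 6.57 and 6.57), while all 3 HOXB4 arrays at 20 weeks (5.65, 4.67 and 5.41) lay below the 3 HOXB4 arrays at 12 weeks (5.76, 6.07 and 5.83). Of the markers of mature cells, 5 of 9 for neutrophils and 4 of 8 for monocytes were called higher in GFP cells at 20 than at 12 weeks, against 1.23% of all genes. The part of these cells in the Cebpd difference was not tested.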

How the results depend on the processing

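The 8 members in 7 comparisons gave 56 differences, recomputed under 7 alternatives other than leaving out an array. Of these 392 values 379 kept their direction and side of the threshold, 5 lost and 4 gained a call, and 4 uncalled differences changed sign. Those 4 were Cebpg for HOXB4 at 12 against 6 weeks after quantile normalisation (-0.11), and, with probe sets averaged per gene, Cebpg for HOXB4 at 20 against 6 weeks (0.11) and Irf8 and Klf4 for HOXB4 at 20 against 12 weeks (-0.044 and -0.11). Median centring, the filter on dim genes and the trend with robust moderation moved no member across the threshold. The number of members called at 20 weeks was 7 under all 7 alternatives and 6 to 7 when an array was left out. At 12 weeks it was 4, ran from 3 to 6 under the alternatives, and was 1 to 2 when an array was left out, Cebpa being called each time. The percentage of all genes called at 12 weeks then ran from 1.25 to 2.12, against 4.02 with all arrays, and 15.2 in the fit on the groups compared. For the difference between effects the number was 1, 2 with the mean of probe sets and 0 to 2 without an array. For GFP at 20 against 12 weeks it was 2 throughout. For HOXB4 it was 0 to 1 at 12 against 6 weeks without an array, 1 at 20 against 12 weeks in the fit on the groups compared (Cebpa), and at 20 against 6 weeks 0 in that fit, 1 with the mean of probe sets and 2 to 4 without an array. Leaving out an array also turned the sign of uncalled differences near 0, in HOXB4 at 12 against 6 weeks for Cebpd (-0.11 to 0.14) and Cebpg (-0.23 to 0.21), in HOXB4 at 20 against 12 weeks for Irf8 (-0.11 to 0.28) and Spi1 (-0.022 to 0.12), and in GFP at 20 against 12 weeks for Cebpg (-0.023 to 0.067). Replicate numbers did not pair arrays: of 30 pairs with the same number 2 had a correlation of deviations over 0.1 (range -0.167 to 0.115). With the replicate number as a block the count at 12 weeks was 3, without Irf8, and no other call changed. Where a value changed with a setting, the cause was not tested.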
